A study of Mus musculus with 24 samples.

Results

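The genes described here are the proteasome subunit genes of mouse skeletal muscle, taken as every gene on the array whose name is Psm followed by a letter from a to g and a number. The rule gave 47 genes on 90 probes: 8 of the core alpha ring (Psma), 8 of the core beta ring (Psmb), 3 of the immunoproteasome (Psmb8, Psmb9 and Psmb10), 20 of the regulatory cap (Psmc and Psmd), 4 of the alternative caps and their inhibitor (Psme and Psmf1) and 4 assembly chaperones (Psmg). Of these, 45 genes on 82 probes passed a filter on dim probes, which asks that 6 of 8 arrays in any group read the probe well above background, as did 19937 gene names in all. The other 2 were Psma8, a testis form of an alpha subunit, and Psmb11, a thymus form of a catalytic beta subunit, which were each well above background on 1 of 24 arrays. No probe carries the name Psme2; its near-identical copy Psme2b, which the rule does not take, is described separately.

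Total RNA from skeletal muscle of 24 mice was hybridised to one-colour Agilent arrays, 8 mice per group. The group STD_Cont was on the control low fat diet and of the control lineage, HFD_Cont was on the high fat diet and of the control lineage, and HFD_O3 was on the high fat diet and of the omega-3 lineage. No low fat group of the omega-3 lineage is among the samples, so HFD_O3 differs from STD_Cont in both diet and lineage, and the lineages are compared on the high fat diet alone. The muscle taken, the age and sex of the mice, the length of the diet and the origin of the omega-3 lineage are not stated in the labels.

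The proteasome degrades proteins that carry chains of ubiquitin. Its core is a barrel of alpha rings, which gate the entry, around beta rings, which hold the proteolytic sites. Psmb5, Psmb6 and Psmb7 encode the constitutive catalytic subunits, and interferon signalling can replace them in newly built particles with Psmb8, Psmb9 and Psmb10. The regulatory cap recognises ubiquitin, removes it and unfolds the substrate with a ring of ATPases (Psmc), and Psme proteins form caps that work without ubiquitin. In muscle the proteasome works with the ligases Trim63 and Fbxo32 in the breakdown of contractile proteins, and the transcription factor NRF1 (Nfe2l1) is known to raise the genes of the whole particle together when proteasome activity falls.

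Promoters are shown for the catalytic subunits Psmb5, Psmb6, Psmb8, Psmb9 and Psmb10, for Psme1, which encodes an interferon-induced cap subunit, and for Psmc2, a cap ATPase that varied closely with the rest of the particle; 1 of its 2 windows is shown. Each runs from 250 bases before to 50 bases after the transcription start in the RefSeq annotation of GRCm38.p6, read on the gene's strand. Capitals mark the antioxidant response element core TGACNNNGC, a letter pattern bound by NRF1 and NRF2, or the interferon-stimulated response element core, which is GAAA, any 2 bases and GAAA again, on either strand; in Psmc2 they mark the ETS core CCGGAAG on either strand. The windows are chr14:54617946-54618245 on the minus strand for Psmb5, chr11:70525107-70525406 on the plus strand for Psmb6, chr17:34197945-34198244 on the plus strand for Psmb8, chr17:34187281-34187580 on the minus strand for Psmb9, chr8:105938343-105938642 on the minus strand for Psmb10, chr14:55578244-55578543 on the plus strand for Psme1 and chr5:21786497-21786796 on the plus strand for Psmc2.
Psmb5: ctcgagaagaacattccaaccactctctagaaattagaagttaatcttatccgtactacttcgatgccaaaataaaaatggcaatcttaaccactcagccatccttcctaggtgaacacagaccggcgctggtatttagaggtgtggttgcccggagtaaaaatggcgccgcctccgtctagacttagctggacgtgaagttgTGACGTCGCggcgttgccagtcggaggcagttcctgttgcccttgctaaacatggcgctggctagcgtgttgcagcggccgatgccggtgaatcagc
Psmb6: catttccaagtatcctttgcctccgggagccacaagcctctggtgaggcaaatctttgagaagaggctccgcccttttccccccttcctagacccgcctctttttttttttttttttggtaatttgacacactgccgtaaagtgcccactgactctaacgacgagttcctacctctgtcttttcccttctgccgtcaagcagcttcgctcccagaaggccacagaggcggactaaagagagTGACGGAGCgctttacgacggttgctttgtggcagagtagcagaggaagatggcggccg
Psmb8: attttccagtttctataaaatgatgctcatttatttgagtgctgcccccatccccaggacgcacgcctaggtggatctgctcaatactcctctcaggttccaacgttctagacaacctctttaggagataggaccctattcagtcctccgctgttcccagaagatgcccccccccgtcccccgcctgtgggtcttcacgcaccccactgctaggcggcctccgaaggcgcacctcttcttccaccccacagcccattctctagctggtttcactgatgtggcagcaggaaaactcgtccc
Psmb9: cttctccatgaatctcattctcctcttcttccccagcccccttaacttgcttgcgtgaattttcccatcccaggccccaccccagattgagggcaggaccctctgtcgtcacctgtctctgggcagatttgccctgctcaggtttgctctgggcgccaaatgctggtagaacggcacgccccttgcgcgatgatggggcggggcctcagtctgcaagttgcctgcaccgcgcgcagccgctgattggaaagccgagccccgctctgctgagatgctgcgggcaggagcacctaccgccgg
Psmb10: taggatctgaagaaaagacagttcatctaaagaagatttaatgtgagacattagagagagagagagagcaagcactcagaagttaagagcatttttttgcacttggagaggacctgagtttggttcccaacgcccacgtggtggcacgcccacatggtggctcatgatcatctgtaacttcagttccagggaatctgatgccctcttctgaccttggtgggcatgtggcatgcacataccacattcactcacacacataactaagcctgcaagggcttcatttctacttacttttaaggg
Psme1: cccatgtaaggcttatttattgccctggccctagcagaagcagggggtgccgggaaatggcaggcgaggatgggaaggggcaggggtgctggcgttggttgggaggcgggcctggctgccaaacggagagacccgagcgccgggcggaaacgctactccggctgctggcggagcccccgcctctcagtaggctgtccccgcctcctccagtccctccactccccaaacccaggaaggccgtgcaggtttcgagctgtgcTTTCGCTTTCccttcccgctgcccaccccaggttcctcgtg
Psmc2: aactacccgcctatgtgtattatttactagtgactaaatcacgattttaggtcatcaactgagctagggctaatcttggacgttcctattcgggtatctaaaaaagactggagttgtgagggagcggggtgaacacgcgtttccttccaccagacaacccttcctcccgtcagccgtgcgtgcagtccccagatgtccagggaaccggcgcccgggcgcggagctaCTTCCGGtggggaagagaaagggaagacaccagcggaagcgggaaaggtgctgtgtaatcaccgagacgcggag

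Promoter windows were found for 39 of the 47 genes, in 41 windows of the 32851 in the table. The antioxidant response element core stood in 6 of the 41 windows (14.6%) and in 12.4% of all windows. It began at position -47 in Psmb5 and at position -9 in Psmb6, and the other 4 were Psmc6, Psmd9, Psmd12 and Psme4. The interferon-stimulated response element core stood in 5 of 41 windows (12.2%) and in 3.44% of all windows: Psmb3, Psmd4, Psmd9, Psme1 (from position 10 after the start, in the reverse direction) and Psmg4. These letters were not in the windows of Psmb8, Psmb9 or Psmb10. The ETS core stood in 15 of 41 windows (36.6%), 10 of the 18 windows of regulatory cap genes among them (55.6%), and in 8.86% of all windows. The GC box GGGCGG stood in 53.7% of the windows of these genes against 35.7% of all windows, and the CCAAT box in 34.1% against 37.4%. The median share of G and C was 57.3% over the 41 windows and 52.7% over all windows, and its part in these shares was not tested.

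Array quality bears on all groups alike. The share of spots well above background ran from 52.0% to 60.7% over the 24 arrays and no spot was saturated. All 10 skeletal muscle markers were well above background on 24 of 24 arrays. White adipocyte genes varied between arrays: their mean, centred on all arrays, ran from -1.64 to 1.60 in STD_Cont, from -1.39 to 2.31 in HFD_Cont and from -1.53 to 1.85 in HFD_O3, with all 8 genes of the list well above background on every array. Their median log2 change was 0.51 in HFD_Cont against STD_Cont and -1.02 in HFD_O3 against HFD_Cont, with 0 of 8 past the test in each comparison. Of the other marker lists, 1 of 5 endothelial genes (Kdr, log2 change 0.45, SE 0.10, adjusted p = 0.021) rose in HFD_Cont against STD_Cont, and 0 of 8 leukocyte, 0 of 5 fibroblast, 0 of 4 erythroid and 0 of 4 Schwann cell genes passed. In whole muscle, fewer cells of a type and less RNA per cell cannot be told apart.

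The proteasome genes moved little in any comparison. In HFD_Cont against STD_Cont, 0 of 45 genes passed an adjusted p of 0.05 in limma, where 2.91% of all gene names did. Between HFD_O3 and HFD_Cont 0 of 45 passed, where 0% of all names did, and in HFD_O3 against STD_Cont 0 of 45 passed, where 0.597% of all names did. At an unadjusted p under 0.05 in HFD_Cont against STD_Cont, the genes numbered 6 (13.3%, against 16.6% of all names). Psmb10 and Psmg1 were higher, where 7.92% of all names were, and Psmb1, Psmc2, Psmd7 and Psmf1 were lower, where 8.63% were. Between the lineages 2 genes (4.44%, against 7.08% of all names) reached that p, Psmb10 and Psmg1, both lower in HFD_O3, where 4.39% of all names were lower and 2.69% higher. For HFD_O3 against STD_Cont they were Psmd1 and Psmf1 (4.44%, against 11.2% of all names), both lower, where 6.39% of all names were lower and 4.83% higher. In each comparison the share of proteasome genes was below that of all names. Without the 9 arrays with a mean adipocyte level over 0.5, which leaves 5 STD_Cont and 4 HFD_Cont arrays, 0 of all names passed in limma in HFD_Cont against STD_Cont (1390 at an unadjusted p under 0.05), so no call in that comparison given below was made there.

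The arrays were precise enough to bound the changes read by the brightest probe of each gene. By the brightest probe, the 95% interval of all 45 measured genes lay within 0.5 log2 units on either side of 0 in each comparison. The interval lay within 0.2 log2 units for 34 genes in HFD_Cont against STD_Cont, for 36 in HFD_O3 against HFD_Cont and for 37 in HFD_O3 against STD_Cont. Of all 19937 names, 15717, 16464 and 16110 lay within 0.5 in these comparisons, and 5257, 5949 and 5717 within 0.2. The bound of 0.5 does not hold for all dimmer probes. In HFD_Cont against STD_Cont, dimmer probes of Psmc2 and Psme4 had changes of -0.50 and -0.51. Intervals also reached beyond 0.5 for dimmer probes of Psma3 (-0.35, SE 0.09), Psmd7 (-0.34, SE 0.09) and Psmf1 (0.31, SE 0.24). The same held for a further probe of Psme4 (-0.32, SE 0.11) and 1 of Psmd4 (-0.0069, SE 0.31). The median standard error of a change was 0.05 log2 units over the 45 genes and 0.09 over all names.

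**Figure D1:**
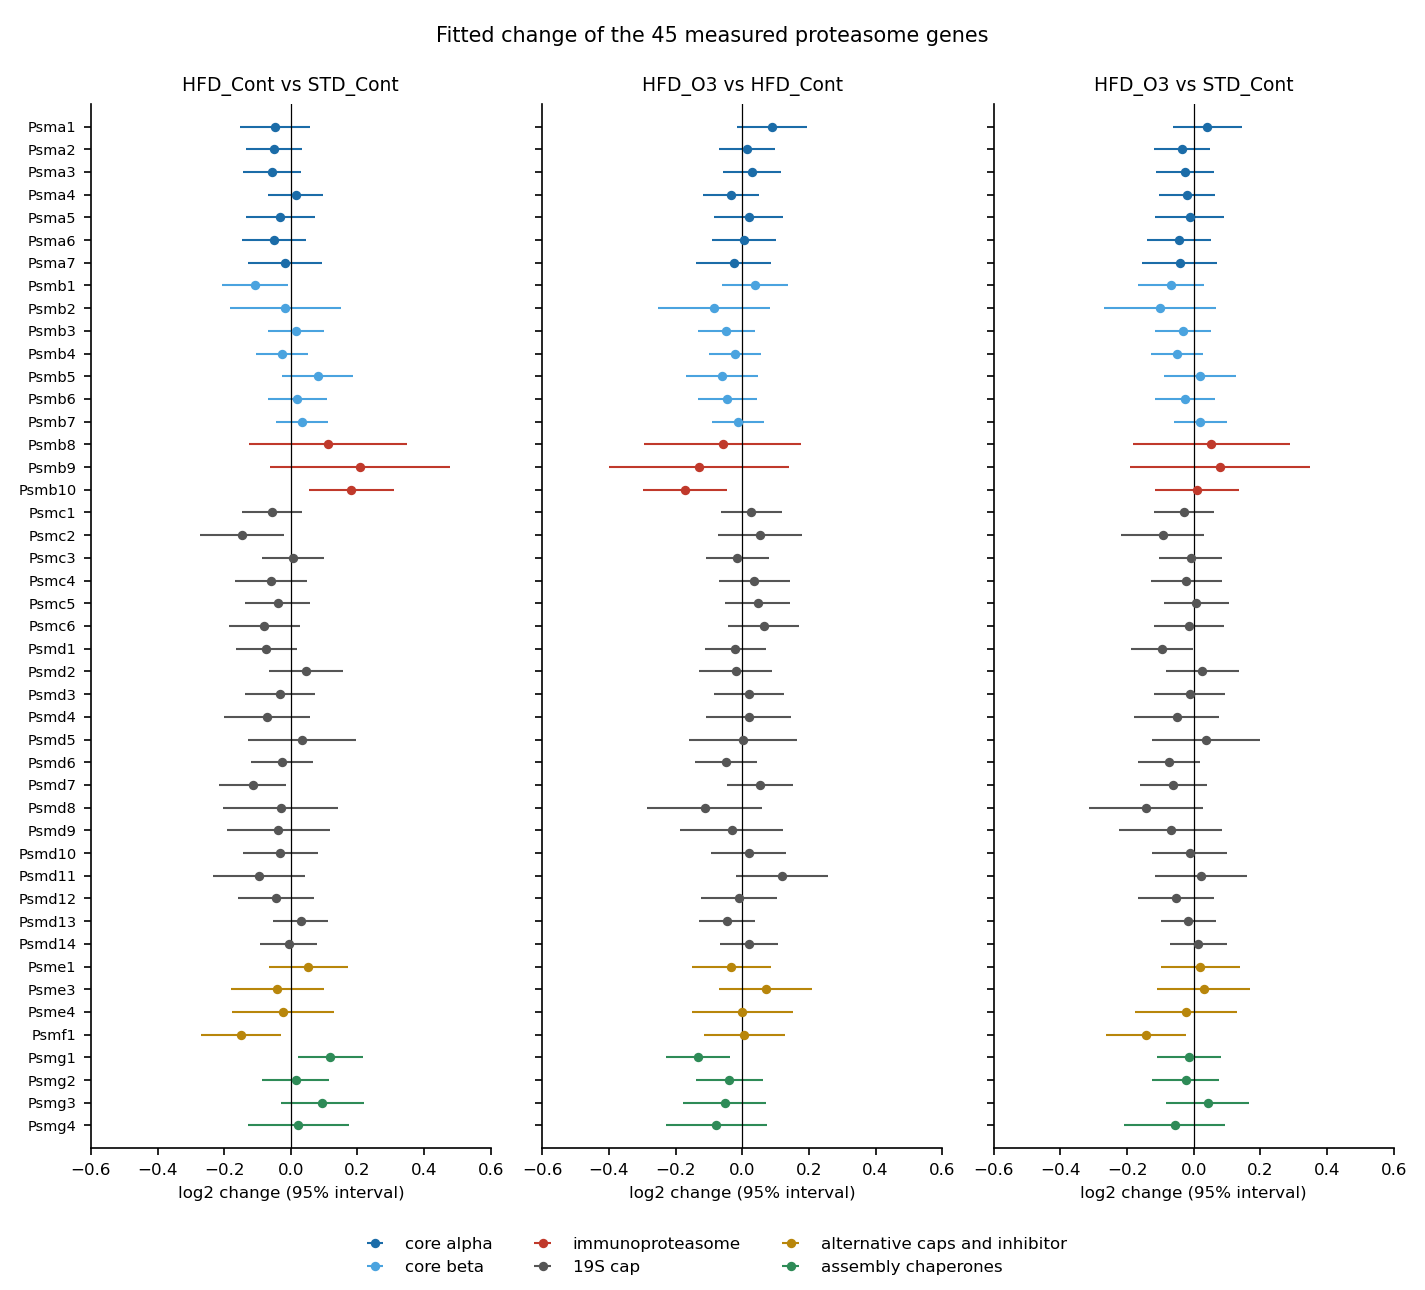
Fitted log2 change of each of the 45 measured proteasome genes by its brightest probe (points), with its 95% interval (bars) in the 3 comparisons. Colour gives the class, and 0 is no change. Every interval lies within 0.5 of 0, and the interval of Psmb10 lies above 0 in HFD_Cont against STD_Cont and below 0 in HFD_O3 against HFD_Cont.

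The core alpha genes, which form the outer rings and the gate, were level between groups. Their median log2 change was -0.05 in HFD_Cont against STD_Cont, 0.02 in HFD_O3 against HFD_Cont and -0.03 in HFD_O3 against STD_Cont, beside medians over all names of 0.0023, -0.014 and -0.015. Changes of the 7 measured genes ran from -0.06 (Psma3) to 0.01 in HFD_Cont against STD_Cont. Psma1 had the largest difference between the lineages: its lowest, median and highest log2 levels were 5.20, 5.34 and 5.38 in HFD_Cont and 5.28, 5.39 and 5.66 in HFD_O3, against 5.27, 5.35 and 5.55 in STD_Cont. The groups overlapped, and the change of 0.09 (SE 0.05, adjusted p = 0.733) did not pass. It was 0.05 without HFD_O3 replicate 7. Psma6 had the largest change of the class in HFD_O3 against STD_Cont, at -0.04 (SE 0.05, adjusted p = 0.8 in limma).

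Among the core beta genes the constitutive catalytic subunits stayed level. Psmb5, which encodes the chymotrypsin-like site, ran from 5.19 over a median of 5.36 to 5.55 in STD_Cont, from 5.36 over 5.44 to 5.54 in HFD_Cont and from 5.21 over 5.39 to 5.45 in HFD_O3. Its change in HFD_Cont against STD_Cont was 0.08 (95% interval -0.03 to 0.19, adjusted p = 0.485), with 7 of 8 HFD_Cont arrays above the STD_Cont median and the groups overlapping. Psmb6, the caspase-like subunit, had a log2 change of 0.02 (interval -0.07 to 0.11) and Psmb7, the trypsin-like subunit, of 0.03 (interval -0.05 to 0.11) in the same comparison. Between the lineages on the high fat diet the changes of Psmb5, Psmb6 and Psmb7 were -0.06, -0.04 and -0.01, with adjusted p from 0.826 to 0.961.

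The non-catalytic beta subunit Psmb1 had the lowest unadjusted p of its class in HFD_Cont against STD_Cont. Its lowest, median and highest levels were 4.58, 4.67 and 4.74 in STD_Cont, 4.50, 4.54 and 4.61 in HFD_Cont and 4.47, 4.57 and 4.88 in HFD_O3. All 8 HFD_Cont arrays lay below the STD_Cont median and the ranges overlapped. The change in HFD_Cont against STD_Cont was -0.11 (SE 0.05, adjusted p = 0.252). Psmb2, another non-catalytic subunit, had the largest change of the class in both comparisons with HFD_O3, at -0.09 against HFD_Cont and -0.10 against STD_Cont (adjusted p = 0.844 and 0.706). One HFD_O3 array, replicate 1, stood at 2.09 where the other 7 lay between 2.63 and 2.86, and without it the changes of Psmb2 were -0.005 and -0.0217.

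Among the immunoproteasome genes, Psmb8 and Psmb9 had the widest spread of the family within groups, and Psmb9 and Psmb10 had its largest changes in HFD_Cont against STD_Cont, with 0 of 3 past the test. Psmb10 had the smallest adjusted p of the 45 genes in that comparison. Its lowest, median and highest levels were 3.85, 4.02 and 4.20 in STD_Cont, 4.13, 4.21 and 4.30 in HFD_Cont and 3.77, 4.09 and 4.17 in HFD_O3. All 8 HFD_Cont arrays were above the STD_Cont median, and all 8 HFD_O3 arrays were below the HFD_Cont median, with overlapping ranges in both comparisons.

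The fitted change of Psmb10 in HFD_Cont against STD_Cont was 0.18 log2 units, or 13.4% (95% interval 3.86% to 23.8%), with an unadjusted p of 0.00698 and an adjusted p of 0.109 in limma. In HFD_O3 against HFD_Cont it was -0.17 (adjusted p = 0.638), and in HFD_O3 against STD_Cont 0.01 (adjusted p = 0.979). The comparisons with STD_Cont and with HFD_O3 share the HFD_Cont arrays. Within slides the change in HFD_Cont against STD_Cont was 0.15, 0.33 and 0.10 on slides 1, 2 and 3, and with the slide and the row on it blocked it was 0.10 (adjusted p = 0.624). Leaving out the 9 arrays with a mean adipocyte level over 0.5, it was 0.14 (adjusted p = 0.849), and the part of adipocyte RNA in it was not tested further. Without HFD_O3 replicates 1 and 7, which enter that comparison through the shared error alone, the adjusted p was 0.0277, where 1238 of 19937 names passed. The change in HFD_O3 against HFD_Cont was then -0.10 (adjusted p = 0.833).

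Psmb8 and Psmb9, which lie side by side in the MHC class II region with the peptide transporter genes, ran together. Psmb9 levels ran from -0.09 over a median of 0.16 to 0.59 in STD_Cont, from 0.07 over 0.39 to 0.86 in HFD_Cont and from -0.10 over 0.19 to 0.77 in HFD_O3. Its change in HFD_Cont against STD_Cont was 0.21 (SE 0.13, adjusted p = 0.465). Psmb8 levels ran from -0.22 over 0.08 to 0.24 in STD_Cont, from -0.17 over 0.15 to 0.50 in HFD_Cont and from -0.39 over 0.10 to 0.48 in HFD_O3, with a change of 0.11 (SE 0.11, adjusted p = 0.704). The groups overlapped for both genes. Against HFD_Cont, the changes in HFD_O3 were -0.13 for Psmb9 and -0.06 for Psmb8 (adjusted p = 0.85 and 0.929); without HFD_O3 replicate 1 they were -0.08 and 0.01.

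**Figure D2:**
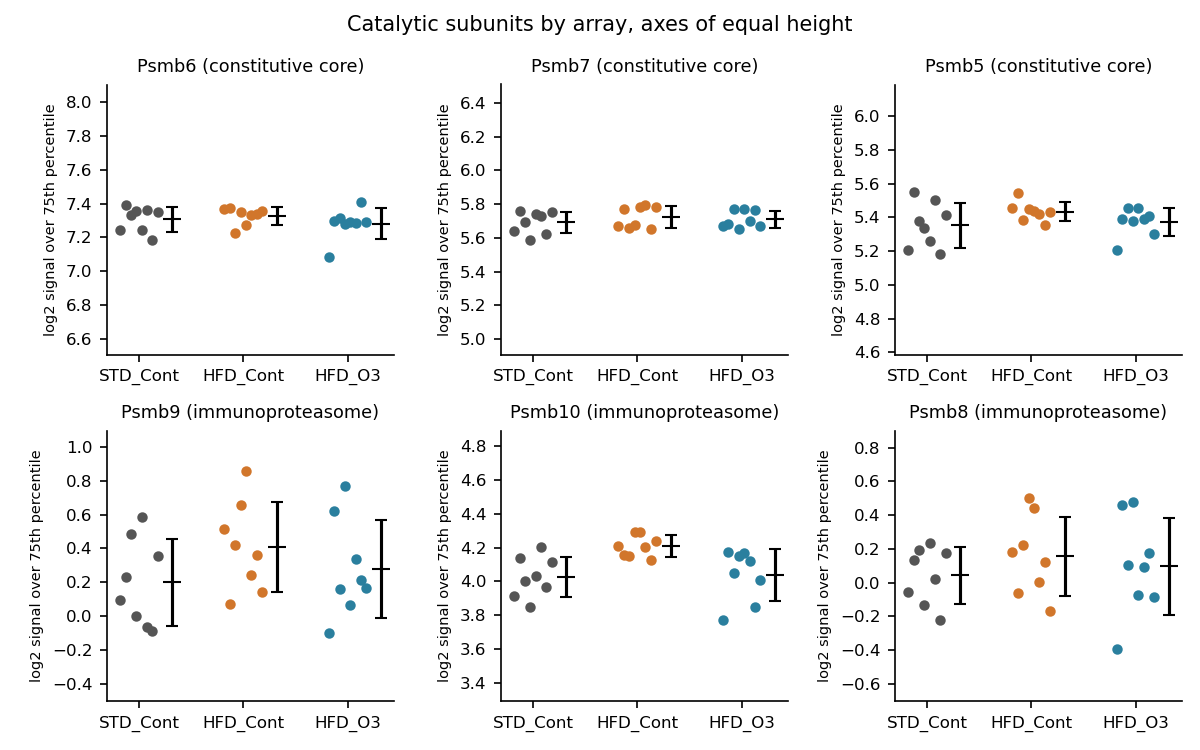
Log2 level over the array's 75th percentile on each array (points) for the constitutive catalytic subunits (top) and their immunoproteasome counterparts (bottom), with the group mean and SD (n = 8) in black. All axes span the same height, so the spread of Psmb8 and Psmb9 can be seen to exceed that of Psmb5, Psmb6 and Psmb7. The probes of Psmb8 and Psmb9 have the lowest signals of the 45 genes, and the part of signal in their spread was not tested. Levels of different genes are not comparable as amounts of RNA.

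Because an immune subunit takes the place of 1 constitutive subunit, the difference of their log2 levels on each array was tested by an exact two-sided permutation over all 12870 arrangements, for 3 pairs in 3 comparisons. The log2 ratio of Psmb10 to Psmb7 was higher in HFD_Cont than in STD_Cont by 0.15 (SE 0.04, n = 8 and 8; exact permutation p = 0.0014, adjusted over the 9 tests 0.0126), with 8 of 8 HFD_Cont arrays above the STD_Cont median. The mean ratio was -1.66 ± 0.07 (SD, n = 8) in STD_Cont, -1.52 ± 0.07 (SD, n = 8) in HFD_Cont and -1.68 ± 0.16 (SD, n = 8) in HFD_O3. It was the 1 of 9 tests to pass. The difference was 0.15, 0.28 and 0.06 within slides 1, 2 and 3. On slide 2 the HFD_Cont arrays all lay in array row 1 and the STD_Cont arrays in array row 2. Group and row cannot be told apart there, and the ratio was not tested with the row blocked.

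The call on this ratio did not hold in all settings. It was 0.11 (adjusted exact permutation p = 0.0671) on the authors' deposited values and 0.12 (adjusted exact permutation p = 0.343) without the 9 adipocyte-rich arrays, which leaves 5 STD_Cont and 4 HFD_Cont arrays. In HFD_O3 against HFD_Cont the ratio differed by -0.16 (SE 0.06, exact permutation p = 0.019, adjusted 0.0853), and by -0.08 (adjusted exact permutation p = 0.364) without HFD_O3 replicates 1 and 7. The ratio of Psmb9 to Psmb6 differed by 0.19 (SE 0.14) and that of Psmb8 to Psmb5 by 0.03 (SE 0.11) in HFD_Cont against STD_Cont, with adjusted exact permutation p of 0.575 and 0.974.

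**Figure D3:**
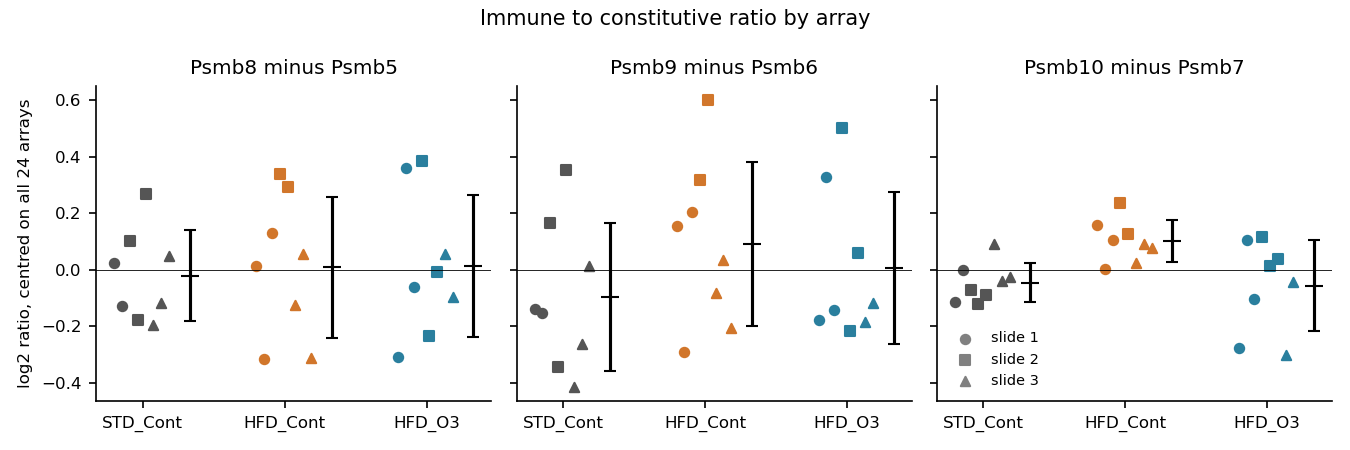
Log2 ratio of each immunoproteasome subunit to the constitutive subunit it replaces, centred on all 24 arrays, for each array by group; marker shape gives the slide and black bars the group mean and SD (n = 8). For Psmb10 to Psmb7 all 8 HFD_Cont arrays lie above the STD_Cont median, and HFD_O3 replicates 1 and 7 lie below every other array.

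Genes of MHC class I presentation and its interferon control, which share inducers with the immunoproteasome, showed 0 of 16 past the test in each comparison, with a median change of 0.04 in HFD_Cont against STD_Cont. Irf1, an interferon-induced transcription factor known to act on Psmb9, had 1.61, 1.69 and 1.90 as its lowest, median and highest levels in STD_Cont and 1.76, 1.92 and 2.12 in HFD_Cont. All 8 HFD_Cont arrays were above the STD_Cont median; the change was 0.19 (SE 0.07, adjusted p = 0.144). The interferon gamma receptor chain Ifngr1 had a log2 change of -0.21 (SE 0.07, adjusted p = 0.132).

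Over the 24 arrays Psmb9 and Irf1 levels were correlated, with Pearson's r = 0.605 (permutation p = 0.00173, adjusted over 13 relations 0.0225) and Spearman's rho = 0.55 (permutation p = 0.00645, adjusted 0.028). The value of r was 0.52 without the 2 arrays farthest from the median of Irf1, 0.55, 0.43 and 0.63 within slides 1, 2 and 3, and 0.55 after centring each group (adjusted permutation p = 0.058). Psmb10 and Irf1 gave r = 0.55 (permutation p = 0.00528, adjusted 0.0343) and rho = 0.55 (permutation p = 0.00637, adjusted 0.028), but 0.33 after centring each group (adjusted permutation p = 0.252). Psmb8 and Irf1 gave r = 0.48 (adjusted permutation p = 0.0472) and rho = 0.37 (adjusted permutation p = 0.201).

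For the leukocyte marker Ptprc with the 3 immunoproteasome genes (r from -0.356 to -0.095) and Nfe2l1 with Psmb5, Psma1, Psmc1 and Psmd1 (r from -0.047 to 0.216) no relation passed, with adjusted permutation p of 0.191 or more. None of the 13 relations passed after centring each group, where the smallest adjusted permutation p was 0.058.

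The regulatory cap moved as little as the core. Its 20 genes had a median change of -0.04 in HFD_Cont against STD_Cont, 0.02 in HFD_O3 against HFD_Cont and -0.02 in HFD_O3 against STD_Cont. In HFD_Cont against STD_Cont 16 of 20 lay below 0 and 4 above, with changes from -0.15 to 0.05. Psmc2, an ATPase of the unfolding ring, lay at the low end. Its lowest, median and highest levels were 6.34, 6.44 and 6.54 in STD_Cont, 6.24, 6.30 and 6.42 in HFD_Cont and 6.17, 6.32 and 6.74 in HFD_O3.

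All 8 HFD_Cont arrays lay below the STD_Cont median of Psmc2, and the ranges overlapped. The change was -0.15 (SE 0.06, adjusted p = 0.211), with an adjusted p of 0.0489 where the 2 groups were fitted without HFD_O3 and 0.0341 where HFD_O3 replicates 1 and 7 were left out. In those 2 fits 1166 and 1238 of the 19937 names passed. Psmd7, a scaffold partner of the deubiquitinase Psmd14, had a log2 change of -0.11 (adjusted p = 0.222), again with 8 of 8 HFD_Cont arrays below the STD_Cont median; it is named after its values were seen. Psmd14 itself had a log2 change of -0.0063 (interval -0.09 to 0.08).

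In HFD_O3 the cap genes with the largest changes were Psmd11, a scaffold subunit, at 0.12 against HFD_Cont (adjusted p = 0.732), and Psmd8, a lid subunit, at -0.14 against STD_Cont (adjusted p = 0.547). The level of Psmd11 ran from 3.32 over 3.57 to 3.68 in STD_Cont, from 3.29 over 3.43 to 3.60 in HFD_Cont and from 3.42 over 3.53 to 3.94 in HFD_O3. Psmd1, the large scaffold of the cap base, ran from 5.98 over 6.03 to 6.15 in STD_Cont, from 5.90 over 5.95 to 6.11 in HFD_Cont and from 5.81 over 5.96 to 6.10 in HFD_O3. Its change in HFD_O3 against STD_Cont was -0.10 (SE 0.04, adjusted p = 0.418), and groups overlapped for all of these. The change of Psmd11 was 0.06 without HFD_O3 replicate 7, and that of Psmd8 was -0.09 without HFD_O3 replicate 1.

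Among the alternative caps, Psme1 and Psme3 form cap rings, and Psme4 forms a single-chain cap. By their brightest probes these genes were level, with changes of 0.05, -0.04 and -0.02 in HFD_Cont against STD_Cont. Another 2 probes of Psme4 had changes of -0.51 (SE 0.19, adjusted p = 0.154 in limma) and -0.32 (SE 0.11, adjusted p = 0.12 in limma) in that comparison. A further probe of Psme4 had 0.09. Psme3 had the largest change of its class in HFD_O3 against HFD_Cont, at 0.07 (adjusted p = 0.845 in limma). Psme1 ran from 3.76 over 3.95 to 4.15 in STD_Cont, from 3.91 over 3.98 to 4.09 in HFD_Cont and from 3.71 over 4.01 to 4.09 in HFD_O3, and the 3 groups overlapped. Psme2b, a near copy of the partner of Psme1 whose probe accessions also include Psme2, ran from 4.50 over 4.59 to 4.72 in STD_Cont and from 4.72 over 4.80 to 4.84 in HFD_Cont. It rose by 0.19 (SE 0.04, adjusted p = 0.0237), with ranges that overlapped at their ends. Whether the call held in other settings or with single arrays left out was not checked, except that no name passed without the adipocyte-rich arrays. Which of the 2 copies the probe read cannot be told apart here. In HFD_O3 Psme2b ran from 4.53 over 4.68 to 4.82, a change of -0.12 against HFD_Cont (adjusted p = 0.638).

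Psmf1, an inhibitor of the core particle, was the 1 gene of the 45 whose groups did not overlap in HFD_Cont against STD_Cont, where 1.14% of all names did not. No gene of the 45 had separate groups in HFD_O3 against HFD_Cont (0.0351% of all names) or in HFD_O3 against STD_Cont (0.15%). Its lowest, median and highest levels were 1.39, 1.42 and 1.54 in STD_Cont, 1.25, 1.31 and 1.34 in HFD_Cont and 0.9988, 1.30 and 1.58 in HFD_O3. The HFD_O3 arrays spread over both other groups. The change was -0.15 in HFD_Cont against STD_Cont (SE 0.06, adjusted p = 0.18) and -0.14 in HFD_O3 against STD_Cont (adjusted p = 0.332). Where HFD_Cont and STD_Cont were fitted without HFD_O3, the adjusted p was 0.0199, and 1166 of the 19937 names passed.

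A second probe of Psmf1 differed from the first, with a change of 0.31 in HFD_Cont against STD_Cont (SE 0.24, adjusted p = 0.582) and group medians of -0.79 and -0.75. One HFD_Cont array stood at 1.58 on that probe, and with the mean of both probes the change of Psmf1 turned to 0.08. The 2 probes lie at chr2:151542485-151542544 and chr2:151555353-151555412 in mm9, the build of the array's annotation.

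The assembly chaperones help to build the alpha ring before beta subunits are added. By their brightest probes, all 4 lay above 0 in HFD_Cont against STD_Cont (median 0.06). All 4 lay below 0 in HFD_O3 against HFD_Cont (median -0.07), and these 2 comparisons share the HFD_Cont arrays. A second probe of Psmg3 had a change of -0.28 in HFD_Cont against STD_Cont (SE 0.09, adjusted p = 0.103 in limma). The probes of Psmg2 also differed in sign in both comparisons, and those of Psmg1 did not. Psmg1 ran from 3.17 over 3.30 to 3.43 in STD_Cont, from 3.28 over 3.45 to 3.51 in HFD_Cont and from 3.17 over 3.31 to 3.37 in HFD_O3. HFD_Cont stood above most of both other groups, and the ranges overlapped.

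The change of Psmg1 was 0.12 in HFD_Cont against STD_Cont (SE 0.05, adjusted p = 0.185) and -0.13 in HFD_O3 against HFD_Cont (SE 0.05, adjusted p = 0.637), with 8 of 8 HFD_O3 arrays below the HFD_Cont median. Psmg4 had a log2 change of 0.02 and -0.08 in these comparisons (adjusted p = 0.937 and 0.843).

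Where a gene had several probes, its probes did not always agree. Of the 25 genes with several probes above the filter, the signs differed between probes in 9 genes in HFD_Cont against STD_Cont, in 11 in HFD_O3 against HFD_Cont and in 12 in HFD_O3 against STD_Cont. Signs differed with an unadjusted p under 0.05 on either probe for Psme4, Psmf1 and Psmg3 in HFD_Cont against STD_Cont, and for Psmd1 and Psmg3 in HFD_O3 against STD_Cont. Unless another probe is named, each gene above is given by its brightest probe.

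Of the 82 probes, 3 (3.66%) fell past the test in HFD_Cont against STD_Cont, where 1.45% of the 29245 probes above the filter did, none of them the brightest of its gene, and each on 8 of 8 arrays well above background in every group. A probe of the alpha subunit Psma3 at chr12:72080515-72080574 in mm9 had medians of 1.26 in STD_Cont and 0.88 in HFD_Cont, a change of -0.35 (SE 0.09, adjusted p = 0.032). A probe of Psmc2 at chr5:21303917-21303976 had medians of 0.69 and 0.20, a change of -0.50 (SE 0.13, adjusted p = 0.0386). A probe of Psmd7 at chr8:110111549-110111608 had medians of 2.10 and 1.72, a change of -0.34 (SE 0.09, adjusted p = 0.0337).

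The ranges of the 2 groups overlapped for all 3 probes. The brightest probes of these genes, at chr12:72095431-72095490, chr5:21309546-21309602 and chr8:110104402-110104461, had log2 changes of -0.06, -0.15 and -0.11 and did not pass. In HFD_O3 against STD_Cont, 1 of 82 probes (1.22%) fell, where 0.181% of all probes above the filter did, a second probe of the chaperone gene Psmg3 at chr5:140300481-140300540 (-0.39, SE 0.09, adjusted p = 0.049), whose brightest probe had a change of 0.04. Which transcripts these probes read was not tested.

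Core and cap genes tended to vary together across the arrays. Across the 24 arrays, after centring each group, the median Pearson r over the 561 pairs of core and cap genes was 0.42. These pairs ran from -0.481 to 0.89. Over all pairs of gene names the median was 0.013, with 5th and 95th percentiles of -0.435 and 0.487. These values share the arrays and their scaling, were not taken again without single arrays, and are a description. Core alpha pairs had a median of 0.60 and regulatory cap pairs 0.44. Pairs of an immunoproteasome gene with a core or cap gene had a median of -0.14.

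Psmb8 and Psmb9 were the closest pair of the family (r = 0.92), followed by Psmc2 with Psmd7 (0.89) and Psmb1 with Psmb4 (0.88). Psmc2 and Psmd7 also had the highest median r with the core and cap genes (0.62 and 0.63), and Psmb9 the lowest (-0.175). Psmd9 and Psmd10, which act as assembly chaperones of the cap, were the cap genes with the lowest values (-0.112 and -0.023). The r of Psme1 was 0.66 with both Psmb5 and Psmb10, 0.55 with Psmb8, 0.41 with Psmb6 and 0.37 with Psmb9, while its median with core and cap genes was -0.14. Psmb5, the constitutive partner of Psmb8, had a median of 0.10 with core and cap genes and r = 0.60 with Psmb10.

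Single HFD_O3 arrays stood apart in this shared variation. The mean of the 20 cap genes, centred on all arrays, was 0.19 on HFD_O3 replicate 7, the highest of 24, and -0.13 and -0.12 on HFD_O3 replicates 1 and 4, the lowest. Its SD over arrays was 0.10 in HFD_O3, 0.03 in HFD_Cont and 0.04 in STD_Cont. The core alpha mean was likewise highest on HFD_O3 replicate 7 (0.20) and lowest on replicate 4 (-0.14). Replicate 1 was the lowest of all arrays in the immunoproteasome mean (-0.40) and the chaperone mean (-0.21).

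**Figure D4:**
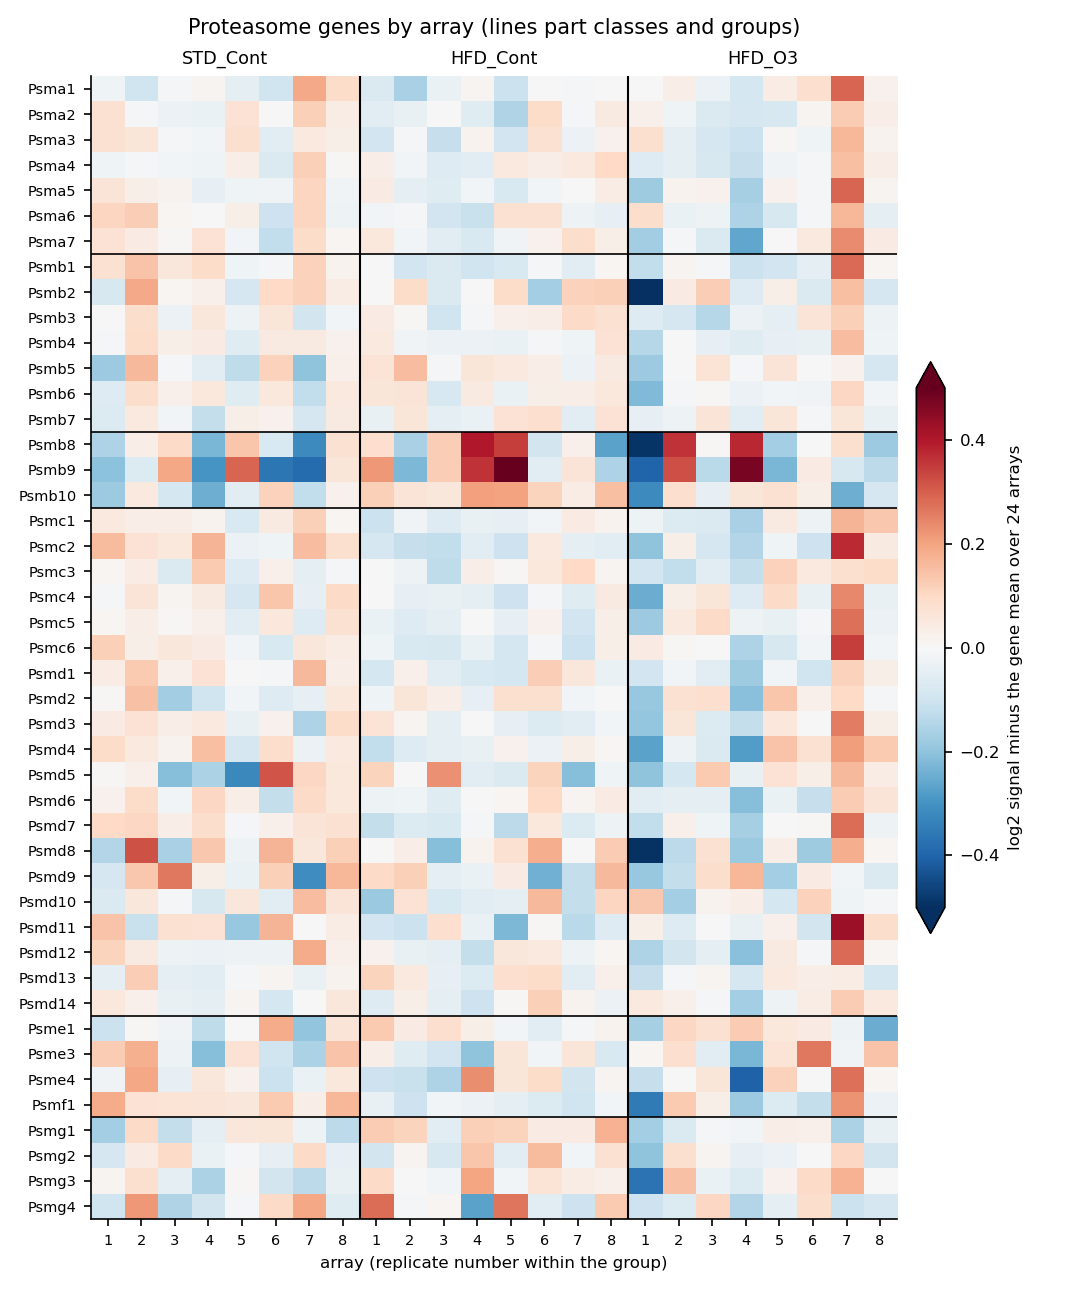
Log2 level of each of the 45 genes on each of the 24 arrays, minus the gene's mean over all arrays (colour, in log2 units, limited at 0.5 on either side). Columns are arrays by group, rows are genes by class; HFD_O3 array 7 is high over most core and cap genes, HFD_O3 arrays 1 and 4 are low, and Psmb8 and Psmb9 follow a pattern of their own.

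Proteasome genes varied less between mice than most genes. Their within-group SD had a median of 0.09 log2 units, against 0.18 over all names and 0.12 over the 3323 names whose level lay within the interquartile range of the members' levels. The class medians were 0.08 for core alpha, 0.07 for core beta, 0.09 for the cap and 0.235 for the immunoproteasome. Psmb9 had the widest SD of the family (0.27) and Psmb4, a non-catalytic beta subunit, the narrowest (0.06). Psmb8 and Psmb9 had the lowest signals of the measured family, below the levels of the 3323 names. The part of signal in their spread was not tested.

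Genes around the proteasome were set beside it from lists of the pathway. These lists were chosen with earlier results of these data known, so counts within them are a description and no test of a list. In HFD_Cont against STD_Cont, 5 of 15 muscle ubiquitin ligases and FOXO factors fell and 0 rose, where 1.48% of all names fell and 1.43% rose. Trim63, the muscle ligase MuRF1, ran from 7.22 over 7.82 to 8.31 in STD_Cont and from 6.14 over 6.62 to 6.97 in HFD_Cont. The ranges did not overlap, and it fell by 1.23 log2 units (SE 0.25, adjusted p = 0.0157). The others were the ligases Cblb (-0.52) and Fbxo30 (-0.34) and the transcription factors Foxo1 (-0.64) and Foxo3 (-0.45). Fbxo32, the other muscle ligase named above and given here after its values were seen, had a log2 change of -0.02 (SE 0.14, adjusted p = 0.974).

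Of 15 genes of ubiquitin and its E1 and E2 enzymes, 1 fell and 0 rose. Ubb, which encodes a chain of ubiquitin repeats, ran from 9.89 over 9.98 to 10.25 in STD_Cont and from 9.60 over 9.68 to 9.86 in HFD_Cont. The ranges did not overlap, and it fell by 0.30 (SE 0.08, adjusted p = 0.0396). The repeats are near identical between ubiquitin genes, and how far probes share transcripts was not tested.

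Of 16 partners of the proteasome, 1 fell, the ubiquitin-binding factor Zfand5 (-0.46, adjusted p = 0.0256), and 0 rose. Of 16 autophagy and lysosome genes, 1 fell, the cargo receptor Sqstm1 (-0.25, adjusted p = 0.033), and 0 rose. Of the 9 measured genes that control proteasome genes with NRF1, 0 passed; Nfe2l1 had a log2 change of 0.04 (SE 0.05), Nfe2l2, which encodes NRF2, of -0.22 (SE 0.10, adjusted p = 0.256) and Ngly1, which encodes an enzyme that activates NRF1, of -0.11 (adjusted p = 0.325).

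No gene of these lists passed in HFD_O3 against HFD_Cont or in HFD_O3 against STD_Cont. Without HFD_O3 replicate 7, 343 of 19937 names passed in HFD_O3 against STD_Cont, 218 of them lower, against 119 with all arrays. Trim63 (-0.97), Foxo1 (-0.54) and Foxo3 (-0.37) were among the 343, with adjusted p from 0.0165 to 0.0321 in limma. For Trim63 the log2 change in HFD_O3 against HFD_Cont was 0.48 (adjusted p = 0.714), and 0.26 without HFD_O3 replicate 7. In HFD_Cont against STD_Cont the 8 genes of these lists named as fallen kept their sign in 19 of 19 other settings. They passed in 11 to 14 of these. None of the 8 passed on 1 slide alone or without the 9 adipocyte-rich arrays, where the change of Trim63 was -1.08 (adjusted p = 0.535). With the slide and the row on it blocked, the change of Trim63 was -1.18 (adjusted p = 0.111), and the groups were spread unevenly over array rows. With each of the 24 arrays left out in turn, Trim63, Cblb, Fbxo30 and Foxo1 passed 24 times, Foxo3 23 times, Zfand5 20 times, Sqstm1 16 times and Ubb 10 times. Without STD_Cont replicate 1, the adjusted p was 0.0577 for Foxo3, 0.0654 for Zfand5, 0.0707 for Sqstm1 and 0.0975 for Ubb.

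**Figure D5:**
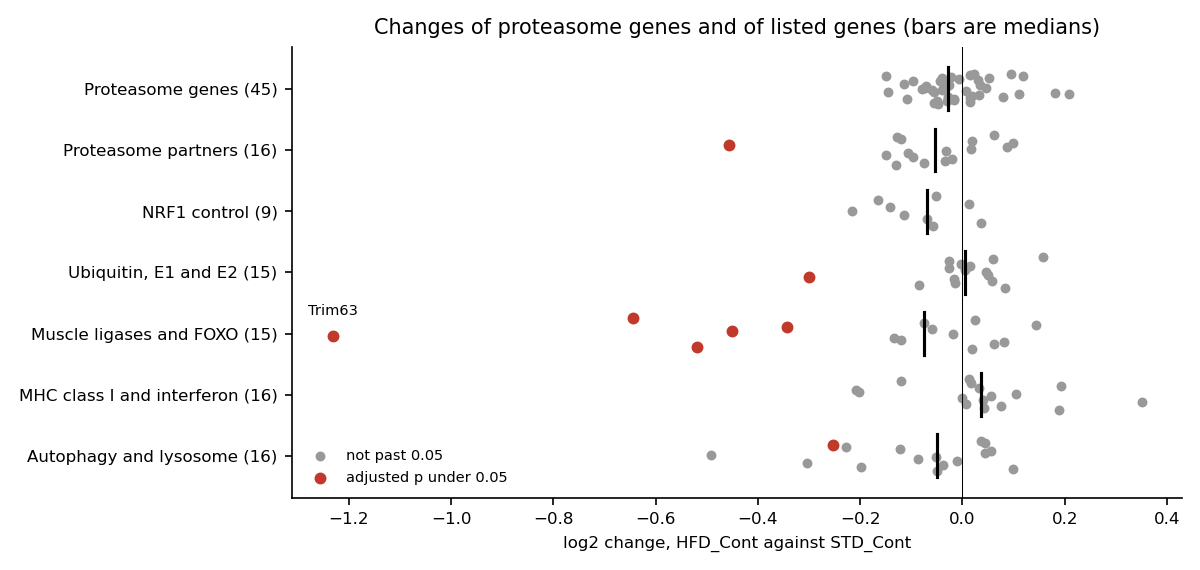
Log2 change in HFD_Cont against STD_Cont of each measured gene (points) of the proteasome family and of 6 lists of the pathway, with the number of genes in parentheses, medians as black bars and genes with an adjusted p under 0.05 in red. The 45 proteasome genes lie between -0.15 and 0.21, and Trim63 lies at -1.23.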

How the data were processed

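Skeletal muscle RNA of 24 mice was measured on one-colour arrays, 8 to a slide on 3 slides. Spot intensities were extracted by the authors with Agilent Feature Extraction 10.10.1.1, per the submitters' processing notes and the file headers, and the intensity used is the scanner's processed signal. The authors' deposited table of log2 values (30124 probes) served as an alternative; its scale was taken from its correlation of at least 0.9996 with the log2 median signal of each array, its column medians are 7.69 to 7.70, and its normalization is not given in the sources used here.

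Outlier spots were left out, log2 signals were averaged by probe, and each array's 75th percentile over probes was subtracted. A probe was kept if well above background on 6 of 8 arrays of a group (29245 of 56605), and the brightest kept probe stood for a gene. Changes were fitted with limma 3.58.1 (R 4.3.3) over all 24 arrays, with Benjamini-Hochberg adjustment over 19937 names and a threshold of 0.05, and the code was tested on simulated data. Ratios used exact permutation over samples and relations 100000 permutations (scipy 1.17.1, pandas 2.3.3, numpy 2.4.6); figures used matplotlib 3.10.9. The number of arrays limits the precision. Each array is labelled with its own replicate number within its group and was taken as a separate mouse.

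Genes are named with a change, and some with levels, by these rules. A member is named if it passed the test, or had the largest change or smallest p of its class in a comparison. Members of a catalytic pair, Psme1, Psme2 and members whose probes disagreed are named too. Genes of the lists are named where they passed, with up to 2 others per list. Results on some genes of the lists, and the relations that involve them, are not reported here. The members, lists and tests were chosen with earlier results of these data known. Alternatives covered background correction, scaling, the filter, the choice of probe, slide, array row, replicate number, array weights and arrays left out.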

Additional observations from a re-analysis of the deposited data

Results flagged for a closer look

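Of 60 sets of 8 arrays (20 named genes in 3 groups), 8 held an array that stood apart by Dixon's criterion. Many of the 20 genes were named for the size or p of their change in these data, and an outlying array can shape either. The count therefore cannot be set against the criterion's usual rate of about 1 in 20. HFD_O3 replicate 7 was high in 4 genes: Psma1 at 5.66 (others 5.28 to 5.45), Psmb1 at 4.88 (others 4.47 to 4.61), Psmc2 at 6.74 (others 6.17 to 6.41) and Psmd11 at 3.94 (others 3.42 to 3.60). HFD_O3 replicate 1 was low in 2 genes, Psmb2 at 2.09 (others 2.63 to 2.86) and Psmb6 at 7.09 (others 7.28 to 7.41). In HFD_Cont, replicate 6 was high in Psmc2 at 6.42 (others 6.24 to 6.32) and replicate 3 was low in Psmd8 at 4.94 (others 5.15 to 5.33). Genes of the particle vary together, so these are not independent.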

How the results depend on the processing

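The count of proteasome genes past the test stayed at 0 in HFD_O3 against HFD_Cont and in HFD_O3 against STD_Cont under all 19 other settings and with any 1 array left out (0 to 0). In HFD_Cont against STD_Cont it was 1 (Psmd7) with the mean of a gene's probes, 2 (Psmc2 and Psmf1) with only the 2 groups fitted, 1 (Psmf1) with array weights and 3 (Psmb10, Psmc2 and Psmf1) without HFD_O3 replicates 1 and 7, and 0 to 0 with any 1 array left out. Class medians moved by more than the spread between replicates only within single slides. In HFD_Cont against STD_Cont they were -0.0411 for core beta and -0.19 for alternative caps on slide 1, 0.37 for the immunoproteasome and 0.12 for chaperones on slide 2, and 0.0087 for core alpha on slide 3. In HFD_O3 against HFD_Cont they were 0.12 for the cap and 0.11 for alternative caps on slide 3. In HFD_O3 against STD_Cont they were -0.10 for the cap and -0.12 for alternative caps on slide 1, and 0.0842 for core alpha and 0.0866 for the cap on slide 3.

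The log2 ratio of Psmb10 to Psmb7 in HFD_Cont against STD_Cont kept its direction, at 0.11 on the deposited values, 0.12 without adipocyte-rich arrays, and 0.15, 0.28 and 0.055 on slides 1, 2 and 3, where 5 or 6 arrays cannot pass; with any 1 array left out it ran from 0.13 to 0.17. In HFD_O3 against HFD_Cont it ran from -0.18 to -0.12 with any 1 array left out, and passed without HFD_O3 replicate 2 (adjusted exact permutation p = 0.035) or 4 (0.0315). In HFD_O3 against STD_Cont it was 0.15 on slide 2 and -0.18 on slide 3. The ratio of Psmb8 to Psmb5 was 0.25 in HFD_Cont against STD_Cont and -0.27 in HFD_O3 against HFD_Cont on slide 2. The causes were not tested, and on slide 2 the HFD_Cont and STD_Cont arrays lay in different array rows. The slides alone for ratios, and the percentile over spots, were added after the data were seen.

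With the replicate number as a block, 0 members passed in each comparison and the immunoproteasome median was 0.18 in HFD_Cont against STD_Cont; calls over all names were 628, against 581. The labels do not say whether equal numbers pair the mice. Same-number pairs had correlations from -0.145 to 0.365, with 6 of 24 over 0.1, and 6 arrays correlated best with their own number. No rate for unpaired mice was taken, so this check cannot decide whether mice were paired. Calls over all names in HFD_Cont against STD_Cont numbered 0 on each slide alone and 0 without adipocyte-rich arrays, where fewer arrays entered; in the other settings they ran from 73 with the slide and the row on it blocked, 135 with no filter and 203 with median scaling to 1166 with only the 2 groups fitted, 1189 with array weights and 1238 without HFD_O3 replicates 1 and 7.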
